A study of Mus musculus with 6 samples.

Results

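The interleukin-3 receptor chains, the kinase JAK2 and the transcription factor STAT5 were followed in Ba/F3-N cells through 7 genes, Il3ra, Csf2ra, Csf2rb, Csf2rb2, Jak2, Stat5a and Stat5b. Their members on the array were the probe sets that the platform annotation pairs with exactly 1 gene, that gene being among the 7. This gave 12 probe sets for the 7 genes, of 45037 probe sets that are not controls and of 18193 genes in all. Ba/F3-N is a mouse bone marrow-derived line in which Ba/F3 cells were transformed with the oncogenic NRAS G12D mutant. A group of 3 samples received 1 µM N-arachidonoyl dopamine (NADA), a conjugate of arachidonic acid and dopamine, and another of 3 received an equal volume of vehicle, with 12 hours of exposure in each. Cells of both groups carried the NRAS oncogene, and the growth protocol names serum and no interleukin-3. RNA was hybridised to Affymetrix Mouse Genome 430 2.0 arrays, 1 per sample. No label says whether the samples of a group came from separate cultures, so the spread behind the p-values may be technical only, and the number of arrays limits the precision.

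The interleukin-3 receptor is built from a ligand-specific alpha chain, which binds the cytokine, and a beta chain, which carries the signal into the cell. Mice have a beta chain shared by the receptors of interleukin-3, GM-CSF and interleukin-5, encoded by Csf2rb, and a closely related chain used by the interleukin-3 receptor alone, encoded by Csf2rb2. JAK2 sits on the cytoplasmic part of the beta chain and phosphorylates it on ligand binding, and STAT5 proteins then dock, dimerise and move to the nucleus. Parental Ba/F3 cells depend on this pathway for survival and growth, and the line is widely used because a signalling oncogene can free it from interleukin-3.

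In NADA-treated cells the transcripts of both beta chains were higher, Csf2rb2 by 5.08-fold and Csf2rb by 3.37-fold and 3.46-fold in its 2 probe sets. Each of these probe sets stayed higher under every scaling tried. A further probe set, paired by the annotation with both genes and so not a member, was 1.65-fold higher as deposited. After scaling to spiked control RNAs it was not called, at a log2 fold change of 0.14. The levels of Il3ra and Jak2 were also higher with the values as deposited, by 1.43-fold for Il3ra and by 1.76-fold and 1.51-fold for Jak2. None of these 3 probe sets passed the test after scaling to spiked control RNAs, and the sign of the Il3ra difference then turned. Stat5b was 1.13-fold higher in 1 of 2 probe sets and passed the test there, Stat5a did not pass it, and both turned lower under that scaling. Csf2ra was below the dim limit in both groups.

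Of the 12 member probe sets 9 passed the dim filter, a mean intensity over all arrays of at least 39.13, the median of all probe sets. All 9 lay above that limit on every array, so none passed through 1 group only. The filter left out both probe sets of Csf2ra and 1 of 2 of Stat5a. Of the 9, 7 were called higher in NADA by limma (adjusted p under 0.05, Benjamini-Hochberg, 22491 probe sets tested), 0 were called lower and 2 were not called. Over all tested probe sets 34.5% were called higher, 36.3% were called lower and 70.9% were called in either direction. The same 7 member probe sets had groups that did not overlap, all of them higher in NADA, against 73.9% of all tested in either direction and 36.2% with NADA higher. A difference of at least 2-fold upward was called for 3 of the 9, all of beta chains, against 4.45% of all tested. The median log2 fold change was 0.6 over the 9 and 0.0 over all tested.

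**Figure D1:**
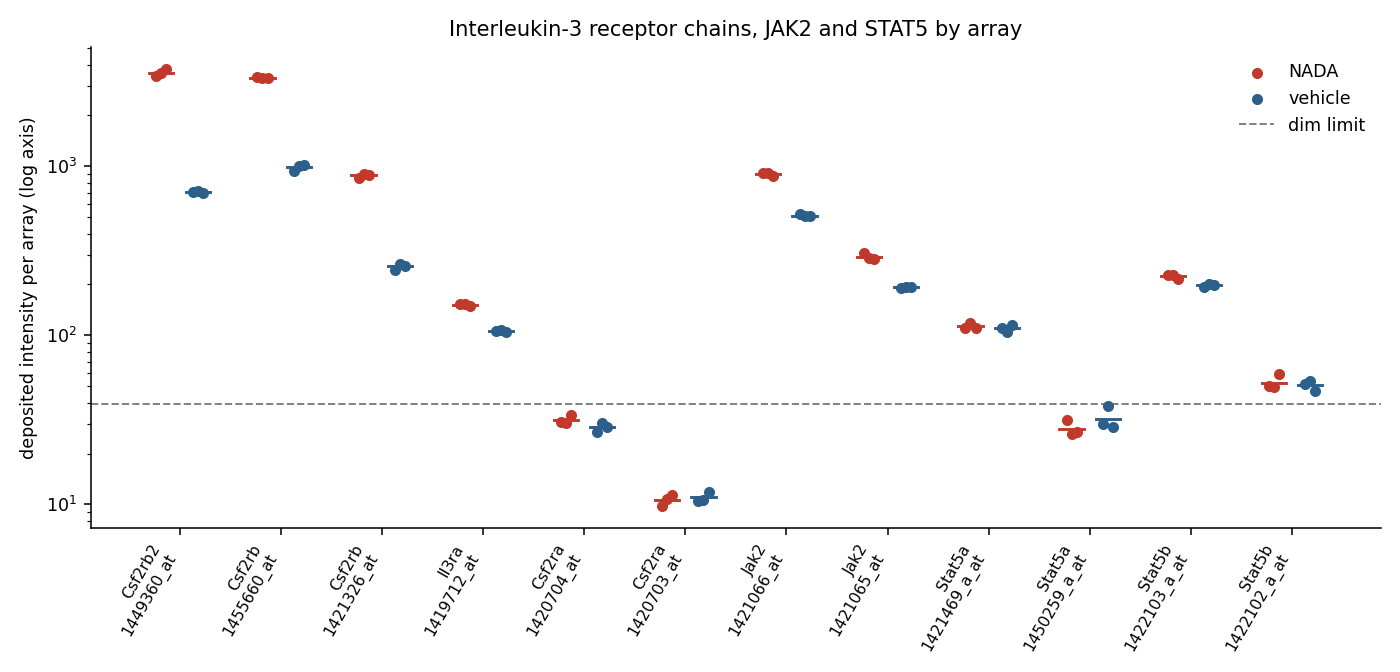
Deposited intensity of each of the 12 member probe sets on each array (log axis), with NADA points to the left of vehicle points; horizontal bars are geometric means of 3 arrays and the dashed line is the dim limit of 39.13. The beta chain probe sets show the widest gaps, and both Csf2ra probe sets and 1 of Stat5a lie under the dashed line.

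Across tested probe sets of named genes, correlations ran from 0.9962 to 0.998 within groups and from 0.934 to 0.9371 between them. The groups also differed in controls. Bacterial poly-A RNAs are spiked into a sample before it is labelled, and their log2 intensity averaged 8.72 ± 0.21 in NADA and 8.14 ± 0.01 in vehicle (SD, n = 3 each). For Actb, a check of RNA integrity and labelling length, the 3' probe set exceeded the 5' one on the log2 scale by 1.06 ± 0.05 in NADA and 0.67 ± 0.04 in vehicle (SD, n = 3 each). Scaling each array to these RNAs, called poly-A scaling here, lowered log2 fold changes by 0.58 and moved the median over all tested probe sets to -0.57, with 1445 probe sets (6.42%) called higher, 17006 (75.6%) called lower and 82.0% called in either direction. As deposited the split was 7768 higher and 8168 lower. Of the 9 member probe sets 3 were then higher, 3 lower and 3 not called. The part of these control differences in the results was not tested, and values under both scalings are given for the members.

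The RefSeq promoter table of mouse build GRCm38.p6 held windows for 6 of the 7 members, all but Csf2rb. Each window runs from 250 bases before the annotated gene start to 50 bases from it. The windows of Csf2rb2, Il3ra and Jak2 are shown, genes called higher in each of their probe sets with the values as deposited. Those of Stat5b, called higher in 1422103_a_at but not in 1422102_a_at, are not shown. The windows shown are reference sequence, printed 5' to 3' on the strand of the gene, and capitals mark motif matches. Csf2rb2 is at chr15:78305672-78305971 on the minus strand, Il3ra at chr14:14346245-14346544 and Jak2 at chr19:29251553-29251852, both on the plus strand.
Csf2rb2: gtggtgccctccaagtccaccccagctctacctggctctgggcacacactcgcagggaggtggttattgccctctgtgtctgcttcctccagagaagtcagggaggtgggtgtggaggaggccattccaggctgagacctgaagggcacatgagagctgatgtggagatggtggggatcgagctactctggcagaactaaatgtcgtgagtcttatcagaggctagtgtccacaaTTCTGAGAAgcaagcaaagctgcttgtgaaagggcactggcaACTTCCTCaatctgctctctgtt
Il3ra: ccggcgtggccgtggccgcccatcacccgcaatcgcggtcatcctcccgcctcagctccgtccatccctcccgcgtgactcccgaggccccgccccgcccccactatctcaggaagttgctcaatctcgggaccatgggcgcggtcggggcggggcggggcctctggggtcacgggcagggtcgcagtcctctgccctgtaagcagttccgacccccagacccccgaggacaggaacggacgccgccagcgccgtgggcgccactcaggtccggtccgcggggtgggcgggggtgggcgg
Jak2: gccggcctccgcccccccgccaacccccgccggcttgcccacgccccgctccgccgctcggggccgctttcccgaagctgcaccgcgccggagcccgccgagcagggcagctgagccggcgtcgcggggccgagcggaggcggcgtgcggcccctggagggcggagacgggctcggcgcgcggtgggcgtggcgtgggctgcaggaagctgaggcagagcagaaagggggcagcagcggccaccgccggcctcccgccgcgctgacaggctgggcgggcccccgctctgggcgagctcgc

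A set of 3 motifs, chosen after the sequences were seen, was searched on both strands in all windows. TTCNNNGAA, the palindrome bound by STAT dimers, was in 8.3% of all 32851 promoter windows. GAGGAAGT, a form of the site of the myeloid and B cell factor PU.1, was in 3.2%, and GAAANNGAAA, a core of the interferon-stimulated response element, in 3.44%. The Csf2rb2 window held the STAT motif as TTCTGAGAA from 15 to 7 bases before the gene start, and the PU.1 motif in reverse orientation as ACTTCCTC from 27 to 34 bases after it. These matches do not overlap each other. None of the 3 motifs was in the windows of Il3ra, Jak2, Csf2ra, Stat5a or Stat5b. The GC content of the Csf2rb2 window was 55.0%, against 74.3% for Il3ra and 81.0% for Jak2.

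Csf2rb2 encodes the beta chain that in mice serves interleukin-3 only. Its probe set 1449360_at had intensities of 3423, 3544 and 3754 on the NADA arrays and 702.1, 711.4 and 694.1 on the vehicle arrays. Every NADA value was more than 4 times every vehicle value, the closest pair standing 4.81-fold apart. The log2 fold change was 2.35 ± 0.04 (SE, limma adjusted p = 8.71e-14), and it ranked 57 from the top among the 22491 tested. With poly-A scaling it was 1.77 ± 0.13 and still called. The array-to-array spread of the control RNAs is shared by all probe sets under that scaling, which the p-values of single probe sets do not take into account.

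Csf2rb encodes the common beta chain, which lies beside Csf2rb2 on chromosome 15 with no protein-coding gene between them in the RefSeq table. Its brighter probe set, 1455660_at, had intensities of 3360, 3311 and 3340 in NADA and 942.2, 1006 and 1022 in vehicle. Its dimmer probe set, 1421326_at, had 855.6, 901.6 and 894.5 in NADA and 244.9, 263.6 and 258.7 in vehicle. The groups were far apart in both. Log2 fold changes were 1.75 ± 0.04 and 1.79 ± 0.05 (SE, limma adjusted p = 2.99e-13 and 1.66e-12), ranks 199 and 185 among all tested. After poly-A scaling they were 1.18 ± 0.13 and 1.21 ± 0.12, and both were still called.

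The size of the change was also compared between the beta chain genes, in a design too small to pass the threshold. On the log2 scale Csf2rb minus Csf2rb2, each by its brightest probe set, was -0.1 ± 0.07 in NADA and 0.49 ± 0.07 in vehicle (SD, n = 3 each), a change of -0.59 that did not overlap between groups. The exact two-sided permutation test gave p = 0.1, adjusted p = 0.1 over 3 pairs of genes, and 0.1 is the smallest p that 3 against 3 arrays allow. This contrast is within arrays, so a common scaling factor does not alter it. Levels of different probe sets are not comparable, and the value concerns only how the ratio moved. The genes are similar in sequence, and how far the probe sets of each also bind transcripts of the other was not tested.

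The genes around this pair on chromosome 15 had smaller differences, which were not tested against those of the beta chains. Ncf4, a subunit of the phagocyte NADPH oxidase on the other side of Csf2rb2, had mean intensities of 984.7 in NADA and 814.9 in vehicle, a log2 fold change of 0.27 ± 0.03 (SE, limma adjusted p = 8.1e-06). Beyond them Tst, which encodes the mitochondrial enzyme rhodanese, was not called at 0.02 ± 0.08 (SE, limma adjusted p = 0.797), and neither was the calcium-binding protein gene Pvalb at -0.01. Tex33 was below the dim limit in both groups.

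Il3ra encodes the alpha chain that binds interleukin-3. Probe set 1419712_at, its only member on the array, had intensities of 152.7, 153.7 and 148.2 in NADA and 105.9, 108.0 and 104.3 in vehicle. All NADA values were above all vehicle values, by a smaller margin than for the beta chains. The log2 fold change was 0.51 ± 0.06 (SE, limma adjusted p = 2.77e-06), but it was -0.06 ± 0.13 after poly-A scaling (limma adjusted p = 0.647).

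Csf2ra encodes the alpha chain that binds GM-CSF. Its probe set 1420704_at had intensities of 30.9, 30.3 and 33.6 in NADA and 26.96, 30.3 and 28.6 in vehicle, and probe set 1420703_at lay between 9.73 and 11.4 in NADA and between 10.5 and 11.9 in vehicle. All of these are under the dim limit and the groups overlap in both. In the fit without the dim filter their log2 fold changes were 0.14 ± 0.09 and -0.06 ± 0.10 (SE, limma adjusted p = 0.267 and 0.737). The log2 difference of Il3ra minus Csf2ra was 2.26 ± 0.11 in NADA and 1.89 ± 0.07 in vehicle (SD, n = 3 each), a change of 0.37 (exact permutation p = 0.1, adjusted p = 0.1 over 3 pairs). The Csf2ra part of this value comes from signal under the dim limit.

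Jak2 encodes the tyrosine kinase bound to the beta chains. Probe set 1421066_at had intensities of 908.5, 913.5 and 881.2 in NADA and 519.0, 511.4 and 505.2 in vehicle. Probe set 1421065_at had 306.9, 285.9 and 281.6 in NADA and 191.6, 192.6 and 193.9 in vehicle. The groups did not overlap in either, and vehicle values were tightly grouped. The log2 fold changes were 0.82 ± 0.04 and 0.6 ± 0.05 (SE, limma adjusted p = 3.69e-10 and 2.26e-07). With poly-A scaling neither was called, at 0.24 ± 0.12 and 0.02 ± 0.12 (SE, limma adjusted p = 0.0641 and 0.894).

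The genes beside Jak2 on chromosome 19 moved in both directions. For Rcl1, a ribosomal RNA processing factor gene, the log2 fold change was -1.08 ± 0.05 (SE, limma adjusted p = 1.38e-10), with mean intensities of 296.9 in NADA and 629.2 in vehicle. Insl6, an insulin-like peptide gene on the other side, had a log2 fold change of 1.12 ± 0.10 (SE, limma adjusted p = 2.27e-07), with 88.2 in NADA and 40.8 in vehicle.

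Stat5a and Stat5b are adjacent genes on chromosome 11 that encode closely related factors activated by JAK2. Stat5b probe set 1422103_a_at had intensities of 227.8, 226.9 and 216.3 in NADA and 192.5, 200.0 and 199.6 in vehicle. The groups did not overlap, though the lowest NADA value was only 1.08 times the highest vehicle value. Its log2 fold change was 0.18 ± 0.05 (SE, limma adjusted p = 0.00717), and -0.4 ± 0.12 after poly-A scaling (limma adjusted p = 0.00179), which turns its direction. The p-value under that scaling does not take the shared spread of the control RNAs into account. With the probe sets of the gene averaged the deposited values gave 0.12, which was not called (limma adjusted p = 0.0584).

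The other Stat5b probe set, 1422102_a_at, had 49.98, 49.45 and 58.8 in NADA and 51.4, 53.4 and 47.1 in vehicle. Stat5a probe set 1421469_a_at had 111.0, 118.7 and 110.4 in NADA and 111.3, 105.0 and 114.5 in vehicle. The groups overlapped in both. Their log2 fold changes were 0.06 ± 0.09 and 0.04 ± 0.07 (SE, limma adjusted p = 0.6 and 0.603), and with poly-A scaling they were called lower, at -0.52 ± 0.16 and -0.54 ± 0.13 (limma adjusted p = 0.00118 and 6.37e-05). So were 75.6% of all tested probe sets under that scaling. The p-values there leave out the shared spread of the control RNAs and are too small for that reason.

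The dim Stat5a probe set 1450259_a_at had 31.6, 26.0 and 27.0 in NADA and 29.9, 38.0 and 28.7 in vehicle. These values overlap, and its log2 fold change in the fit without the dim filter was -0.19 ± 0.12 (SE, limma adjusted p = 0.249). The difference in response between the paralogs, Stat5a minus Stat5b by the brightest probe sets, was -0.14 on the log2 scale (exact permutation p = 0.1, adjusted p = 0.1 over 3 pairs, with -0.98 ± 0.05 in NADA and -0.84 ± 0.08 in vehicle, SD, n = 3 each). Stat3, the next gene along chromosome 11 and a factor of the same family, had mean intensities of 796.0 in NADA and 392.4 in vehicle. Its log2 fold change was 1.02 ± 0.04 (SE, limma adjusted p = 5.73e-11) and 0.44 after poly-A scaling, where it was still called.

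**Figure D2:**
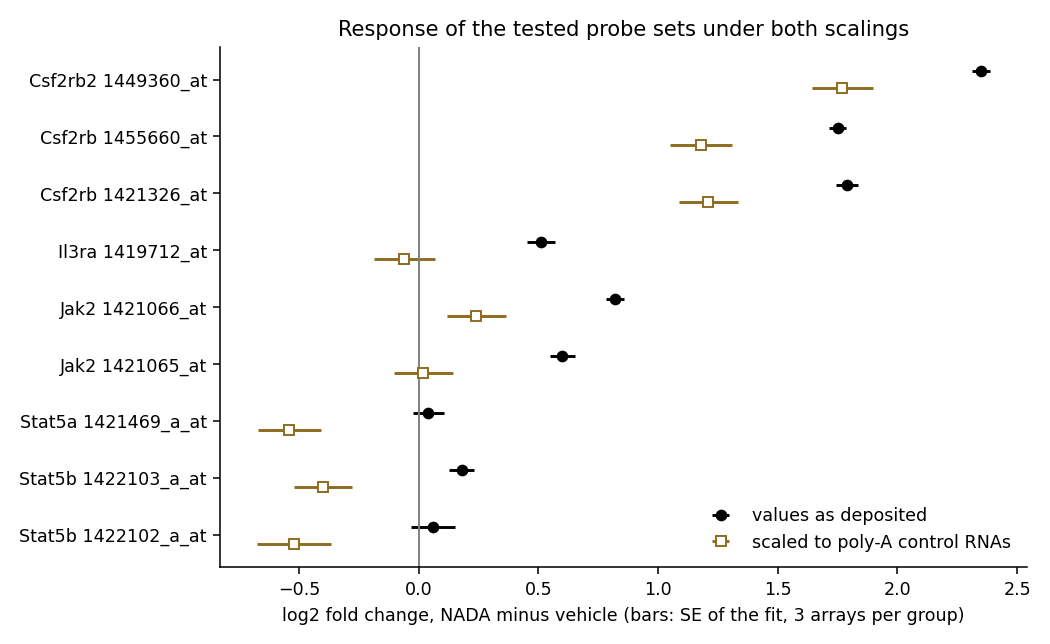
Log2 fold change (NADA minus vehicle) of the 9 tested member probe sets with values as deposited (filled circles) and scaled to the poly-A control RNAs (open squares); bars are the SE of limma over 3 arrays per group. The 3 beta chain probe sets stay above 1 under both scalings. Il3ra and Jak2 probe set 1421065_at move to near 0, Jak2 probe set 1421066_at moves to 0.24, and the Stat5 probe sets move below 0.

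**Figure D3:**
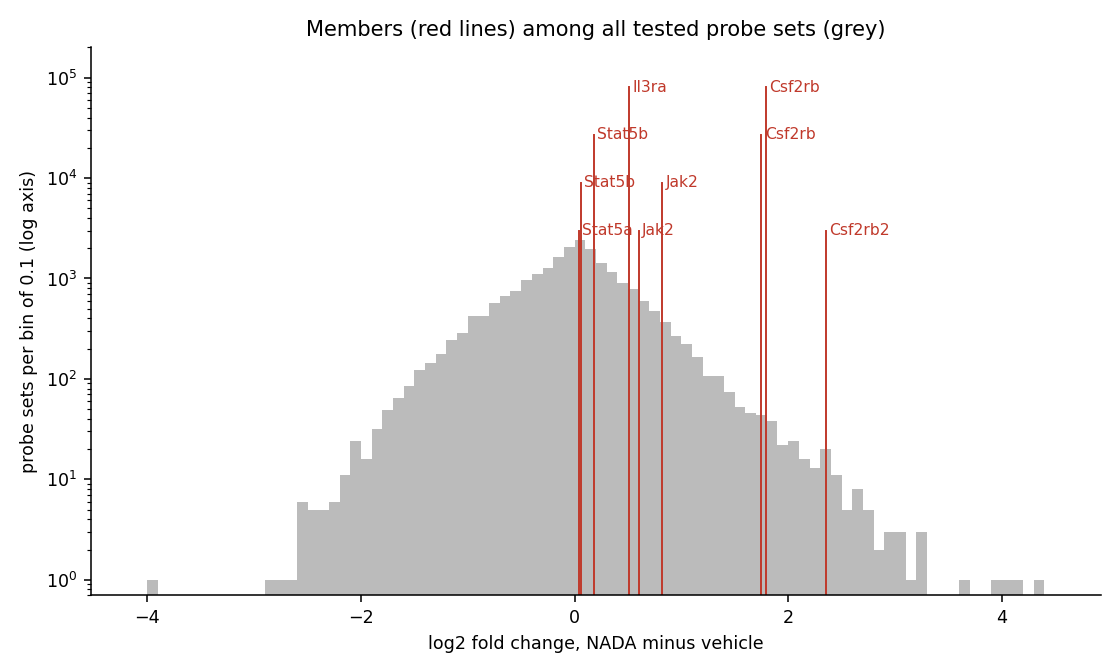
Histogram of the log2 fold change (NADA minus vehicle) of all 22491 tested probe sets in bins of 0.1 (grey, log count axis), with a red line at each of the 9 tested member probe sets; line heights only separate the labels. Csf2rb2 at 2.35 and Csf2rb at 1.75 and 1.79 lie in the upper tail, and the Stat5 probe sets lie near the centre.

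The genes whose profile was most like a member were found by the root mean square distance of the 6 log2 values, centred on the vehicle mean, among 10051 genes. Nearest to Csf2rb2 were Trib3, a pseudokinase induced by stress, at 0.05 log2 units (a probe set that can bind several transcripts) and Samd9l, an interferon-inducible gene, at 0.0503. Nearest to Csf2rb were Dapp1, an adaptor of B cell receptor and PI3K signalling, at 0.0246 and the DNase I-like gene Dnase1l1 at 0.0258. Tom1 (0.00889) and Papss1 (0.0166) were nearest to Il3ra, Tbrg1 (0.0182) and Crebbp (0.0193) to Jak2, Zfp64 (0.0195) and Mgll (0.0209) to Stat5a, and Kif3a (0.015) and Gpkow (0.0163) to Stat5b. With 6 arrays in 2 groups such a distance mostly reflects an equal size of change.

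The cytokines that these receptors bind were at low signal in both groups. Il3 had a mean intensity of 8.6 in NADA and 8.95 in vehicle, Csf2, the gene of GM-CSF, 12.25 in NADA and 12.97 in vehicle, and Il5 12.4 in NADA and 12.7 in vehicle. All 3 were under the dim limit, as was Il5ra, the alpha chain of the interleukin-5 receptor, at 17.4 in NADA and 15.4 in vehicle. Without the dim filter none of the 4 was called, with limma adjusted p from 0.258 for Il5ra to 0.827 for Il5.

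Counts over the rest of the pathway used the brightest probe set of each gene, with its p from the fit over all probe sets, and 35.3% of all 10505 genes tested were called higher, 37.2% lower and 72.5% in either direction on that basis. Among 31 other cytokine and growth factor receptors of blood cells 14 of the 28 on the array were tested. Of these 7 rose, 2 fell and 5 were not called, with a median log2 fold change of 0.24. After poly-A scaling 1 was higher and 7 were lower, and the median was -0.34. Crlf2, a receptor chain for TSLP, had a log2 fold change of 0.82 ± 0.04 (SE, limma adjusted p = 3.34e-10; 0.25 and not called after that scaling), close to that of Jak2. The interferon receptor chains Ifnar2 (1.1) and Ifnar1 (0.76) and the chain Il10rb (0.81) rose too, and Ifnar2 alone of these 4 was called after scaling (0.52). The 3 probe sets of Ifnar2 ranged from 1.1 to 2.1, and their mean gave 1.67.

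Of the other kinases of the JAK family Jak1 and Jak3 fell, under both scalings, and Tyk2 rose with the values as deposited. Jak1 had mean intensities of 1506 in NADA and 1797 in vehicle, a log2 fold change of -0.26 ± 0.04 (SE, limma adjusted p = 3.3e-05), and its 3 probe sets lay between -0.28 and -0.26. Jak3, the kinase of the common gamma chain, had low signal at 48.1 in NADA and 58.2 in vehicle and fell by 0.27 on the log2 scale. Tyk2, a kinase of interferon receptors, had a log2 fold change of 0.57 ± 0.07 (SE, limma adjusted p = 3.49e-06), and -0.01 after poly-A scaling (limma adjusted p = 0.95). Its 2 probe sets were at 0.17 and 0.57, and their mean gave 0.37. The differences between these kinases and Jak2 were not tested.

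Of the other STAT genes on the array 3 were tested and all rose by their brightest probe set, under both scalings. Stat2, part of the interferon-activated ISGF3 complex, had intensities of 215.2 to 241.2 in NADA and 61.2 to 70.1 in vehicle, a log2 fold change of 1.8 ± 0.07 (SE, limma adjusted p = 8.09e-11). Stat6, which acts downstream of interleukin-4, had a log2 fold change of 0.96 ± 0.05, and Stat3 is given above. Their median was 1.02, against 0.04 for Stat5a and 0.18 for Stat5b by the same choice of probe set, a difference that was not tested. The 4 probe sets of Stat3 ranged from 0.21 to 1.02, and their mean gave 0.68.

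Among adaptors and links from the receptors to RAS and PI3K 12 of 15 tested rose, 2 fell and 1 was not called (median log2 fold change 0.29). After poly-A scaling 2 were higher and 8 lower (median -0.29). The docking proteins Gab2, with 571.1 in NADA and 171.3 in vehicle, and Gab3, with 144.0 in NADA and 40.98 in vehicle, had log2 fold changes of 1.74 ± 0.06 and 1.82 ± 0.11 (SE, limma adjusted p = 1.4e-11 and 4.04e-09), and both were called under either scaling. The 3 probe sets of Gab2 ranged from 0.28 to 1.74, and their mean gave 0.91. The vehicle values of Gab3, from 36.3 to 47.5, lay around the dim limit. Its log2 fold change was 1.27 with 32 added before log2 and 1.52 with a floor of 50. Ptpn11, the phosphatase SHP2 that links the beta chain to RAS, fell by 0.88 on the log2 scale, with 422.5 in NADA and 777.9 in vehicle. Vav1, an exchange factor for RAC, had 0.56, and -0.02 after poly-A scaling.

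Negative regulators of JAK-STAT signalling were split, with 9 of 21 tested higher, 9 lower and 3 not called (median log2 fold change -0.02). After the scaling 0 were higher and 16 lower (median -0.6). Dok2, an adaptor that restrains RAS signalling, had 300.1 in NADA and 967.2 in vehicle, a log2 fold change of -1.69 ± 0.04 (SE, limma adjusted p = 1.15e-12). Sh2b3, which encodes the JAK2 inhibitor LNK, fell by 1.16 on the log2 scale, with 230.0 in NADA and 513.4 in vehicle. Inpp5d, the lipid phosphatase SHIP1, and Ptprc, the CD45 phosphatase, had log2 fold changes of 0.71 and 0.68, and 0.13 and 0.1 after poly-A scaling, where neither was called. The 2 probe sets of Inpp5d were at 0.21 and 0.71, and their mean gave 0.46.

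Genes known as targets of STAT5 included 3 of 13 tested that rose, 7 that fell and 3 that were not called (median log2 fold change -0.13). After the scaling 0 were higher and 11 lower (median -0.71). Cish, the feedback inhibitor that STAT5 induces, had intensities of 153.6 to 154.8 in NADA and 91.9 to 107.7 in vehicle, with no overlap. Its log2 fold change was 0.61 ± 0.07 (SE, limma adjusted p = 2.54e-06), and 0.04 after poly-A scaling (limma adjusted p = 0.793). Ccnd2, the gene of cyclin D2, had 1556 in NADA and 3997 in vehicle (log2 fold change -1.36 ± 0.03, SE), and its 7 probe sets all lay between -1.82 and -1.36. Id1 fell by 1.37 and Bcl2l1, which encodes the survival protein BCL-XL, by 0.92 on the log2 scale. The brightest probe set of Ccnd3 had -0.73, but its 3 probe sets ranged from -0.73 to 2.03, so its direction depends on the probe set.

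**Figure D4:**
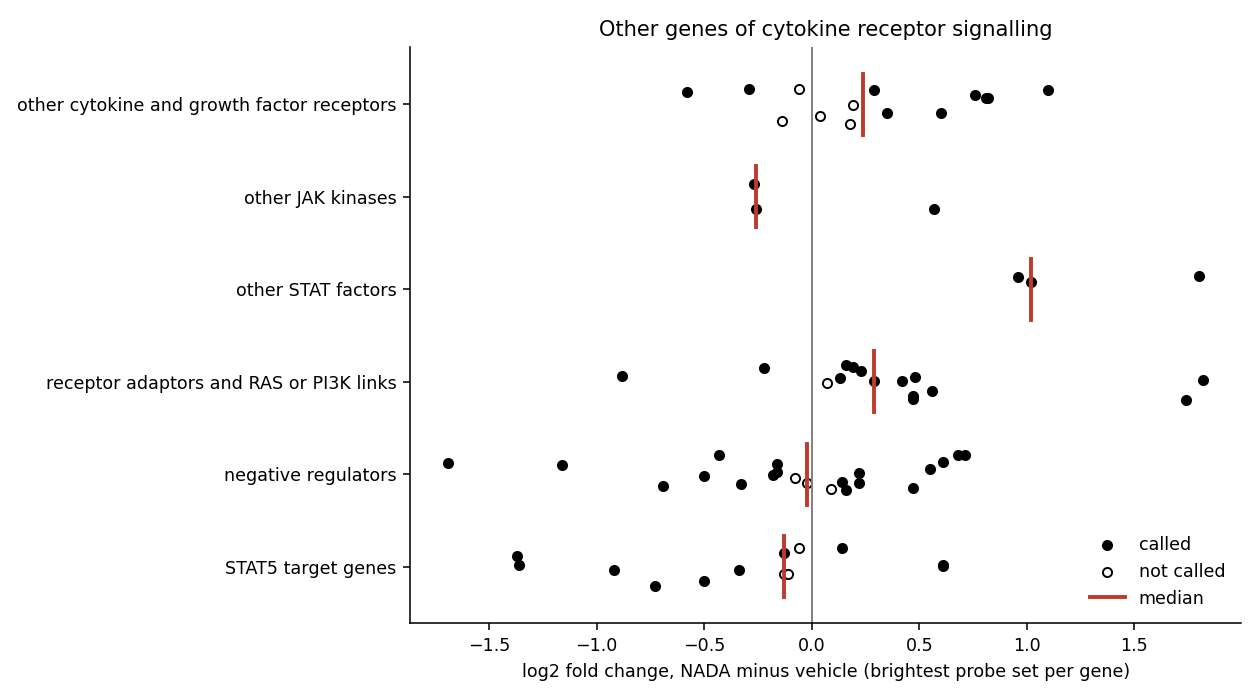
Log2 fold change (NADA minus vehicle) of the tested genes of 6 lists around the receptor, by the brightest probe set of each gene; filled points were called, open points were not, and red bars are list medians. Other STAT genes lie to the right of 0 with a median of 1.02, and STAT5 target genes have a median of -0.13.

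Markers of blood and other cell types were checked against the label, on the deposited values. Of 14 B lymphoid markers on the array 4 were above the dim limit, with 1 higher and 0 lower. Cd79b rose, with 111.6 in NADA and 81.04 in vehicle (log2 fold change 0.46). Bank1 had 912.7 in NADA and 892.6 in vehicle (0.03) and was not called. Igll1 (0.19) and Cd22 (-0.07) were not called either. Among the others Cd79a, Pax5, Ebf1, Vpreb1, Rag1 and Rag2 were under the dim limit in both groups. Of 12 myeloid markers 5 were tested, with 2 higher and 1 lower. The macrophage marker Adgre1 (279.6 in NADA and 108.9 in vehicle, log2 fold change 1.36) and the lysozyme gene Lyz2 (202.6 in NADA and 121.2 in vehicle, 0.74) rose, and Prtn3, a neutrophil protease gene, fell by 0.41 on the log2 scale. S100a8 was not called at 841.4 in NADA and 814.1 in vehicle. Csf1r was not called either, at a log2 fold change of 0.18, with its 3 probe sets between 0.01 and 0.39. Itgam, Mpo, Elane and Csf3r were under the dim limit in both groups. Of 13 mast cell and progenitor markers on the array 5 were tested. Kit, Fcer1a, Ms4a2, Mcpt4, Tpsb2, Tpsab1, Cd34 and Cma1 were under the dim limit in both groups. Of the 5 tested 2 were higher, Gata1 (log2 fold change 1.19) and Mitf (0.76), and 2 were lower, Cpa3 (-0.24) and Gata2 (-0.21). Hdc was not called (0.09).

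Of 4 erythroid markers tested 3 rose, Rhag (log2 fold change 3.68), Klf1 (1.05) and Epor (0.6), and the transferrin receptor gene Tfrc fell by 0.99 on the log2 scale. Rhag passed the dim limit through the NADA arrays alone, at 167.6 in NADA and 13.1 in vehicle. The defining red cell genes Hba-a1, Alas2 and Slc4a1 were under the dim limit in both groups. Only probe sets paired with 1 gene were read, and Hba-a1 had 1 of these. T and natural killer markers had 1 higher and 0 lower of 3 tested, and fibroblast, epithelial and endothelial markers 1 higher and 1 lower of 4. After poly-A scaling the B lymphoid and the T and natural killer markers each had 0 higher and 3 lower, the fibroblast, epithelial and endothelial markers 0 higher and 4 lower, the myeloid and the mast cell and progenitor markers each 1 higher and 3 lower, and the erythroid markers 2 higher and 1 lower. Lyz2 (0.16), Mitf (0.18), Epor (0.02) and Cd79b (-0.12) were then not called. S100a8 (-0.53), Csf1r (-0.4), Hdc (-0.49), Bank1 (-0.55), Cd22 (-0.64) and Igll1 (-0.39) were then lower. Summed intensities, which the brightest probe sets dominate, ran from 1303 to 1377 in NADA and 1262 to 1324 in vehicle for B lymphoid, 2023 to 2103 in NADA and 1893 to 1935 in vehicle for myeloid and 2550 to 2575 in NADA and 2653 to 2716 in vehicle for mast cell and progenitor markers. They ran from 2100 to 2235 in NADA and 3469 to 3521 in vehicle for erythroid, 593.3 to 601.6 in NADA and 562.5 to 602.3 in vehicle for T and natural killer, and 390.1 to 403.6 in NADA and 404.1 to 418.5 in vehicle for fibroblast, epithelial and endothelial markers. The part of these levels in the results was not tested, and in bulk RNA more cells of a type and more RNA per cell cannot be told apart.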

How the data were processed

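RNA from 6 Ba/F3-N samples, 3 with NADA and 3 with vehicle, was measured on Affymetrix arrays. The deposited values are linear intensities normalized by the authors, 1 per probe set and array. Per the submitters' processing notes the tools were MAS5 and RMA, with no role or version given. They ran from 2.19 to 20113, with array medians from 38.04 to 39.23, and no detection calls were used here. Since array medians were made nearly equal, a shift common to most transcripts would not show.

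Log2 intensities were fitted with limma 3.58.1 (lmFit, then eBayes with trend, group as the only term) in R 4.3.3, two-sided, over all probe sets that are not controls and reach a mean intensity of 39.13, 22491 of 45037. The fit ran per probe set because the members are probe sets. The ± of a log2 fold change is its standard error. The verbs rose and fell stand only for calls. Gene symbols came from the platform annotation, and gene identifiers of 34741 of the 34945 probe sets with 1 gene matched the RefSeq table of GRCm38.p6, used for names, neighbours and promoter windows. Probe sets ending in _a_at can bind several transcripts of a gene. Paralog differences used scipy 1.17.1. The limma fit was tested on simulated data with independent noise, in which far fewer probe sets changed than were called here. That simulation held no spread shared by all probe sets of an array.

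The members, lists, tests and alternatives were chosen with earlier results of these data known. Named were all members, up to 4 genes with the smallest p of each pathway list, Il3, Csf2, Il5, Il5ra, the other JAK genes and Cish, and the 2 nearest profiles of each member; the neighbours on the chromosome and the marker genes were added after seeing the data. Alternatives are given in the closing section.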

Additional observations from a re-analysis of the deposited data

Results flagged for a closer look

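A probe set outside the members, 1450200_s_at, is paired by the annotation with both Csf2rb2 and Csf2rb, so it was left out of the 12, and it also carried signal that differed between the groups. Its intensities were 158.6 on each of the 3 NADA arrays and 97.8, 89.2 and 101.7 on the vehicle arrays. The log2 fold change was 0.72 ± 0.07 (SE, limma adjusted p = 2.91e-07), smaller than at the 3 probe sets of single beta chain genes, and 0.14 after poly-A scaling (limma adjusted p = 0.284). The NADA values are identical to the last deposited digit, as they are for 30 of 45101 probe sets in NADA and for 28 in vehicle.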

How the results depend on the processing

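The count of 7 member probe sets higher and 0 lower was the same under quantile normalization, median centring, 32 added before log2, a floor of 50, array weights, no dim filter, no intensity trend, a dim limit at the 70th percentile and an adjusted p under 0.01, and was 7 and 0 without each array in turn. With the replicate number as a block it was 7 and 0 as well. Both groups hold each replicate number equally often, so a block cannot move a difference of group means. The paralog differences of -0.59, -0.14 and 0.37 are thus the same with it. The block changed no call of a member, and 7757 probe sets were then higher and 8188 lower over all. The sample titles do not say what samples with the same number shared beyond it. Their deviations from the group means correlated at 0.195, -0.0999 and 0.0164, and not every sample correlated best with its own number. Correlations over so few arrays cannot decide whether the samples were paired. With the brightest probe set per gene 5 member genes were higher, and with the mean of probe sets per gene 4, since fewer features are counted and Stat5b was not called. When the model was refitted and p-values readjusted on 10505 genes alone, 3773 were higher and 3956 lower with the brightest probe set per gene and 3639 and 4061 with the mean per gene. Without single arrays the fit per probe set, over 22491 probe sets, called 7230 to 7848 higher and 7716 to 8071 lower.

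Scaling to the poly-A RNAs left 3 member probe sets higher and 3 lower, against 1445 higher and 17006 lower over all. Values that turned sign under it were Il3ra (-0.06), Stat5a (-0.54), Stat5b (-0.4 and -0.52), Tyk2 (-0.01) and Vav1 (-0.02). With the mean of probe sets Ccnd3 turned to 0.45. Across the alternatives 156 of 163 values of single member probe sets stayed on the same side of the threshold and, where called, kept their sign. The same held for 426 of 435 values of other named genes. Of the remaining values 4 of members and 3 of other named genes turned sign. A further 3 of members and 6 of other named genes kept their sign but were no longer called. The uncalled Stat5b probe set 1422102_a_at, at 0.06, was at -0.02 without NADA replicate 3. The paralog differences ranged without single arrays from -0.63 to -0.56 for Csf2rb minus Csf2rb2, from -0.18 to -0.11 for Stat5a minus Stat5b and from 0.33 to 0.43 for Il3ra minus Csf2ra. The last was 0.51 with a floor of 50, which sets Csf2ra to the floor on every array.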
